A study of Mus musculus with 6 samples.

Results

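The 150 RNAs described here are the most abundant antisense and bidirectional promoter non-coding RNAs of a mouse pulmonary microvascular endothelial cell line, profiled by RNA-seq. They were the rows of the deposited table whose biotype was antisense or bidirectional_promoter_lncRNA, outside the X and Y chromosomes and with a name that does not start with Snhg, ranked by the count summed over all 6 libraries. The rule left 2943 of the 55232 features, of which 1533 had at least 1 count, and the first 150 were taken. Of these, 127 were annotated antisense and 23 bidirectional_promoter_lncRNA. Their summed count ran from 15659 (Tug1) to 131 (Gm20632, Erich2os and Gm9776, inside the limit), and the first RNAs outside it were Gm26737 with 129 and Gm26628 with 127. The members were thus chosen by their count summed over both groups, so their levels are a description. The rule did not use the difference between the groups, but this class of RNA was taken up with earlier results of these data known. Each RNA was paired with the nearest or overlapping protein-coding gene on the other strand, called its partner below, which gave 150 different partners.

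In the repletion group (3 samples), the endothelial cells sat for 12 h in the lower chamber of a co-culture with TCMK-1 cells (a kidney tubule epithelial line of the mouse) that had been ATP-depleted and then ATP-repleted. In the control group (3 samples), they sat for 12 h below TCMK-1 cells that had not been treated. The study's title concerns the uptake of HMGB1 by pulmonary endothelial cells and lung injury after renal ischemia-reperfusion. Whether replicates were separate cultures is not stated in the labels, and the p-values therefore cover the spread between libraries, part or all of which may be technical.

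The libraries held 15582349 to 17817618 counts. Between 18835 and 22130 features had a count in the repletion libraries and between 17899 and 19185 in the control libraries. Of 10 endothelial markers all had counts, and their summed level was 2062 to 2442 CPM (counts scaled to a fixed library total) in repletion cells and 2040 to 2254 CPM in control cells. Single markers differed. Erg was at 65.7 to 102 CPM in repletion cells and 33.0 to 46.2 CPM in control cells, and Tek at 50.5 to 53.6 and 26.1 to 37.7 CPM. Sox18 and, by little, Kdr were also higher in every repletion library, and Vwf was lower. Cldn5, a tight-junction gene of endothelium, was at or near 0 in all 6 libraries. Markers of kidney tubular epithelium (10 of 13 with counts) summed to 16.4 to 20.7 CPM in repletion cells and 14.1 to 17.5 CPM in control cells, with Epcam, Krt18 and Slc34a1 at 0. Most of this sum came from Aqp1 and Pax2. Aqp1 was at 6.02 to 10.2 CPM in repletion cells and 6.35 to 9.6 CPM in control cells. Pax2 was at 3.93 to 10.4 CPM in repletion cells and 4.62 to 7.1 CPM in control cells. Krt19 was at 1.48 to 2.23 CPM in repletion cells and 0.673 to 1.17 CPM in control cells. The leukocyte markers were nearly all Cd68, at 216 to 305 CPM in repletion cells and 369 to 411 CPM in control cells, while Ptprc was at or near 0. The lung epithelial markers summed to at most 1.80 CPM in repletion cells and 0.925 CPM in control cells, and the fibroblast markers to 14.1 to 19.7 CPM in repletion cells and 16.5 to 20.7 CPM in control cells. The part of these other cell types in the results below was not tested.

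Mammalian promoters are often transcribed in both directions: RNA polymerase II starts a coding transcript on one strand and a shorter-lived non-coding one on the other. Most such upstream RNAs end early and are degraded by the nuclear RNA exosome, but some are spliced, polyadenylated and stable enough to be annotated as genes. Antisense RNAs can also start inside or behind a coding gene. A few are known to act in cis, such as Kcnq1ot1, which silences an imprinted domain, while for most members no function is established.

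The promoters of 4 members show the layout in which 1 short stretch of DNA holds both start sites, and they were picked after the values were seen so that each combination of directions appears. Each is a RefSeq window on GRCm38.p6 from 250 bases before to 50 bases after the start of the non-coding RNA, written 5′ to 3′ on the strand of that RNA, with its RefSeq start at position 251. That start lies 37 bases from the deposited one for Cep83os, 11 for F730043M19Rik, and 0 for Map2k3os and Gm16576. Partner starts are the deposited ones. Capitals mark GGGCGG, a GC box, and CCAAT, the core of the NF-Y site, on either strand, so that they also appear as CCGCCC and ATTGG. Cep83os was higher and its partner Cep83 lower in repletion cells than in control cells (chr10:94688564-94688863, minus strand, partner start at position 210). F730043M19Rik was lower and Atxn7l1 higher (chr12:33147537-33147836, minus strand, position 144). Map2k3os and Map2k3 were both higher (chr11:60931818-60932117, minus strand, position 85), and Gm16576 and Sun2 were both lower (chr15:79742448-79742747, plus strand, position 89).
Cep83os: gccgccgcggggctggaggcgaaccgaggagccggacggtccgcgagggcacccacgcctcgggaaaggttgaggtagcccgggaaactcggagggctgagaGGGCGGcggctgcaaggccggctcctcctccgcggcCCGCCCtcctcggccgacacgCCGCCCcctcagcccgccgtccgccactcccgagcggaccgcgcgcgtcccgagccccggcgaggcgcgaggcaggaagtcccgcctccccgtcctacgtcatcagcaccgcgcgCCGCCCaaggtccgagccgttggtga
F730043M19Rik: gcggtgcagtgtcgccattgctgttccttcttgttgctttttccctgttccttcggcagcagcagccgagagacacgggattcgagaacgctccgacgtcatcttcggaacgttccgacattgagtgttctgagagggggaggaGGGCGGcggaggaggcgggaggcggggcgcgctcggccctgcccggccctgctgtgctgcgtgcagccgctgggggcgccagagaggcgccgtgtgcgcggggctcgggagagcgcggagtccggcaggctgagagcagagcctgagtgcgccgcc
Map2k3os: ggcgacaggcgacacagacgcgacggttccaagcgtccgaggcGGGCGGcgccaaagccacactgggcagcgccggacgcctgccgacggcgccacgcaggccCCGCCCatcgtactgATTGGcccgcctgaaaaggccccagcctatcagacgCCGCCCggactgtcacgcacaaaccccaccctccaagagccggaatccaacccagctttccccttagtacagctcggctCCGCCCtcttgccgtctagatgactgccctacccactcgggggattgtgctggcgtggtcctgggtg
Gm16576: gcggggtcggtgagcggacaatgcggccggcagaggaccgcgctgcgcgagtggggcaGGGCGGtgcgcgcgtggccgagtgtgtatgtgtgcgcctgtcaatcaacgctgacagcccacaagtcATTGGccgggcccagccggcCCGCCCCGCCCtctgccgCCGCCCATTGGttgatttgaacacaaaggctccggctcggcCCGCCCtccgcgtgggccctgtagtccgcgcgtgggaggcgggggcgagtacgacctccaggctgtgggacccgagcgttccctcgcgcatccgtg

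All 4 windows were rich in CpG. The GC content was 76.7% with 46 CpG in the Cep83os window, 68.7% with 33 in that of F730043M19Rik, 67.7% with 30 in that of Map2k3os and 71.7% with 38 in that of Gm16576. The Cep83os window held 4 GC boxes and that of F730043M19Rik 1, with no CCAAT in either. None of the other motifs searched, named below, occurred in the 4 windows. The Map2k3os window held 4 GC boxes and 1 CCAAT, and the Gm16576 window 5 GC boxes, of which 1 pair shared a base, and 2 CCAAT. In these 4 picked windows each of the 2 motifs thus occurred beside a rise and beside a fall. So few windows cannot show whether a motif goes with a direction of change.

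RefSeq held a promoter for 76 of the 150 members by symbol, and for 46 of them within 100 bases of the deposited start. Their median GC content was 62.0%, against 53.0% over all 32544 distinct RefSeq promoter windows of the same length, and the median ratio of observed to expected CpG was 0.653 against 0.387. GGGCGG was found on either strand in 26 of the 46 (56.5%, against 35.9% of all windows) and CCAAT in 16 (34.8%, against 37.4%). The TATA box TATAAA was found in 2 (4.35%, against 13.6%), the E-box CACGTG, which reads the same on both strands, in 5 (10.9%, against 7.17%), and the AP-1 motif TGANTCA in 2 (4.35%, against 7.79%). The partner's start lay inside the same window in 12 of the 46. The median GC content was 63.0% in the 9 windows of members that were higher in repletion cells, 61.4% in the 6 of members that were lower and 61.3% in the 31 others. GGGCGG was found in 7 of these 9, 2 of these 6 and 17 of these 31 windows, and CCAAT in 3, 3 and 10 of them. The difference between these sets was not tested. The background held every window, whether or not its gene was expressed in these cells, while the members were chosen by count. No comparison with the promoters of other expressed genes was made, so these contrasts cannot be called particular to the members. These shares are a description of the letters in the windows and show no binding.

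More of the non-coding RNAs were called higher than lower in repletion cells. Counts were tested with edgeR's quasi-likelihood test (two-sided) over all 13804 features that passed a filter on low counts, with Benjamini-Hochberg adjustment over all of them and a threshold of 0.05. All 150 members passed the filter. Of them, 35 rose (23.3%), against a background of 20.5% of all tested features, and 13 fell (8.67%), against 19.2%. In all 48 were called, against 39.7% of all tested features, and the other 102 (68.0%) did not pass the test. Among protein-coding genes 21.2% rose and 20.8% fell, and among long intergenic RNAs 25.7% rose and 8.91% fell. The share of members that rose was thus near the background, and the share that fell was below it and close to that of the intergenic RNAs. The median log2 fold change, repletion over control, was 0.34 over the members, 0.00 over all tested features, 0.44 over the intergenic RNAs and 0.06 over the tested partners. The fold change was positive in 101 members and negative in 49. The libraries of the groups did not overlap for 64 members, 43 higher and 21 lower in repletion cells, which is 42.7% of the members against 50.3% of all tested features. Antisense RNAs (29 rose, 9 fell, 89 not called, median 0.33) and bidirectional promoter RNAs (6 rose, 4 fell, 13 not called, median 0.37) had similar medians.

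The members were rare RNAs, and their precision was lower than that of a typical gene. Their median summed count was 250, against 2381.5 over all tested features, and the median standard error (SE) of their log2 fold change was 0.399, against 0.157. Together they held 0.1004%, 0.1012% and 0.0975% of the counts in the repletion libraries and 0.0781%, 0.0854% and 0.0760% in the control libraries. Every repletion library was above every control library. The mean share was 0.0997 ± 0.00194% in repletion cells and 0.0798 ± 0.00494% in control cells (SD, n = 3 each), and without Tug1 it was 0.0812 ± 0.00258% in repletion cells and 0.0665 ± 0.00359% in control cells. In bulk RNA of a culture, fewer cells that make an RNA and less of it per cell cannot be told apart. Of the 48 called members, 28 were called under every alternative setting that was run, 21 of them higher and 7 lower in repletion cells.

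**Figure D1:**
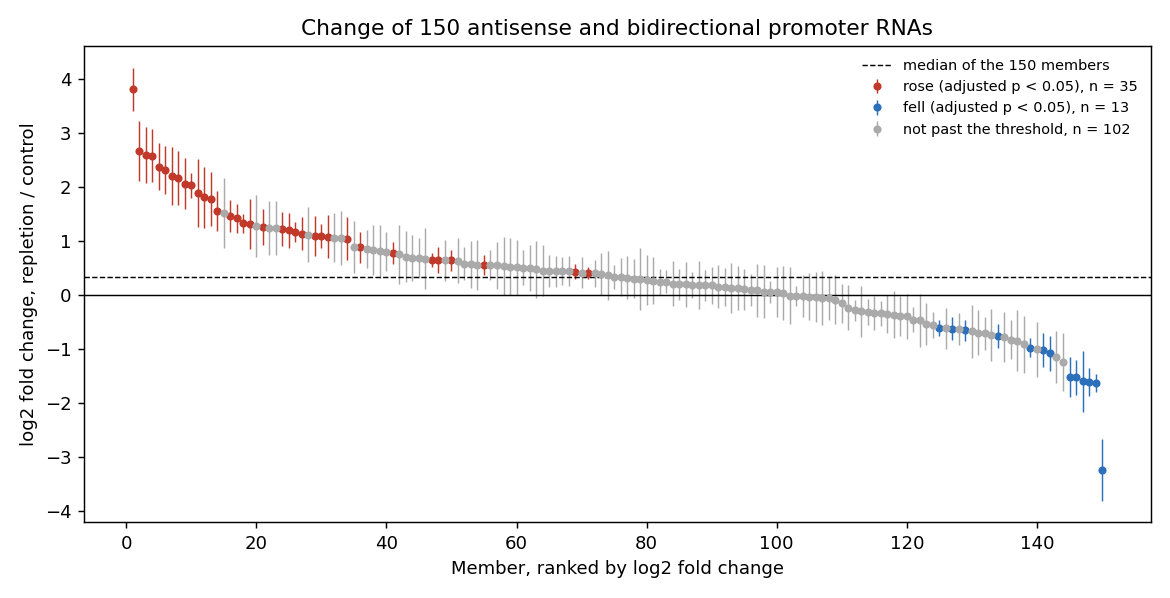
The log2 fold change of each of the 150 members, repletion over control, with its SE as a bar, in rank order; red members rose, blue members fell and grey members did not pass the test. The called rises run from 0.41 to 3.82 and the called falls from -0.61 to -3.24, and the dashed median lies above 0, at 0.34.

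Of the 12 most abundant members 7 rose and 4 fell, by factors between 1.33 and 3.08. Of all tested features 20.5% rose and 19.2% fell. Abundance eases a call: the SE of Tug1 was 0.11, against a median of 0.399 over the members. Changes are given as log2 fold changes, repletion over control, unless called a fold, and a pair of values after a left-out library gives the log2 fold change and the adjusted p without it. Tug1, a conserved long non-coding RNA first found in the developing retina, lies at chr11:3639785-3649673 and had 2821, 3019 and 3175 counts in repletion libraries, against 2140, 2359 and 2145 in control libraries. All 3 repletion libraries were above the control libraries, and the RNA rose 1.33-fold (log2 fold change 0.41, SE 0.11, adjusted p = 0.00596 with edgeR). Its partner Morc2a, which encodes a chromatin-silencing ATPase, also rose (log2 fold change 0.90, adjusted p = 0.000103). In the ratio test described below, the log2 ratio of Tug1 to Morc2a changed by -0.48 and was not called (adjusted p = 0.0595 with limma). It passed with a pseudocount of 2 (-0.45, 0.0409) and without repletion replicate 2 (-0.61, 0.0282). The call for Tug1 was lost without control replicate 3 (0.34, adjusted p = 0.057) and when a trend with gene length was removed (0.21, adjusted p = 0.12).

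Brip1os had 1257, 902 and 1285 counts in repletion libraries, against 593, 740 and 815 in control libraries, with no overlap. It rose 1.57-fold (log2 fold change 0.65, SE 0.14, adjusted p = 0.00116 with edgeR), while Ints2, a subunit of the Integrator complex encoded on the other strand within its span, was at 60.6 ± 5.68 CPM in repletion cells and 62.8 ± 8.51 CPM in control cells (SD, n = 3 each). Rab10os had 496, 662 and 453 counts in repletion libraries, against 231, 190 and 209 in control libraries. It rose 2.52-fold (log2 fold change 1.33, SE 0.18, adjusted p = 2.13e-05), and its level stood at 32.6 ± 7.92 CPM in repletion cells and 12.9 ± 1.53 CPM in control cells (SD, n = 3 each). Its partner Rab10, a small GTPase of vesicle transport, rose by 0.34 on the log2 scale (adjusted p = 0.0219), a call that was lost without repletion replicate 2 (0.23, adjusted p = 0.108) or 3 (0.35, 0.0689) or control replicate 2 (0.30, 0.102) or 3 (0.31, 0.0949), and under the replicate block (0.34, 0.0527).

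Gt(ROSA)26Sor, the RNA of the ubiquitously active ROSA26 locus used for transgenes, had 555, 1018 and 739 counts in repletion libraries, against 557, 386 and 380 in control libraries. Repletion replicate 1 lay at the level of control replicate 1, so the groups overlapped. The RNA rose by 0.78 on the log2 scale (SE 0.21, adjusted p = 0.00689 with edgeR), and without repletion replicate 2 the call was lost (0.49, adjusted p = 0.0518). A further pair of abundant members rose by smaller factors, 4933412E12Rik by 0.44 (adjusted p = 0.0185) and B230354K17Rik by 0.56 (adjusted p = 0.0268). Their partners Rab3ip, an exchange factor for a Rab GTPase, and Cdc5l, a spliceosome component, were not called (-0.19 and -0.07), although Rab3ip passed without repletion replicate 2 (-0.40, adjusted p = 0.0251). The call for 4933412E12Rik was lost without repletion replicate 1 (0.36, adjusted p = 0.0618) or 3 (0.43, 0.0584) or control replicate 2 (0.34, 0.111). That for B230354K17Rik was lost without repletion replicate 3 (0.43, adjusted p = 0.145) or control replicate 1 (0.48, 0.0919) or 3 (0.52, 0.0847), and under the replicate block (0.55, 0.0502).

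Kcnq1ot1, the imprinted antisense RNA of the Kcnq1 potassium channel gene, had 419, 254 and 262 counts in repletion libraries, against 315, 590 and 501 in control libraries. The groups overlapped, since repletion replicate 1 exceeded control replicate 1. The RNA fell by 0.62 on the log2 scale (SE 0.21, adjusted p = 0.0259 with edgeR), but the call was lost without repletion replicate 2 (-0.53, adjusted p = 0.0768) or 3 (-0.51, 0.119) and without control replicate 2 (-0.41, 0.17) or 3 (-0.63, 0.0571). With a gene length of 93092 bases, the longest of the members, its change was -1.44 once the trend with length was removed. Kcnq1 itself was not called (-0.32, adjusted p = 0.38). Gm16185, inside the mitochondrial carrier gene Slc25a36, was the 1 RNA among the 12 most abundant that did not pass the test (-0.28, adjusted p = 0.277).

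**Figure D2:**
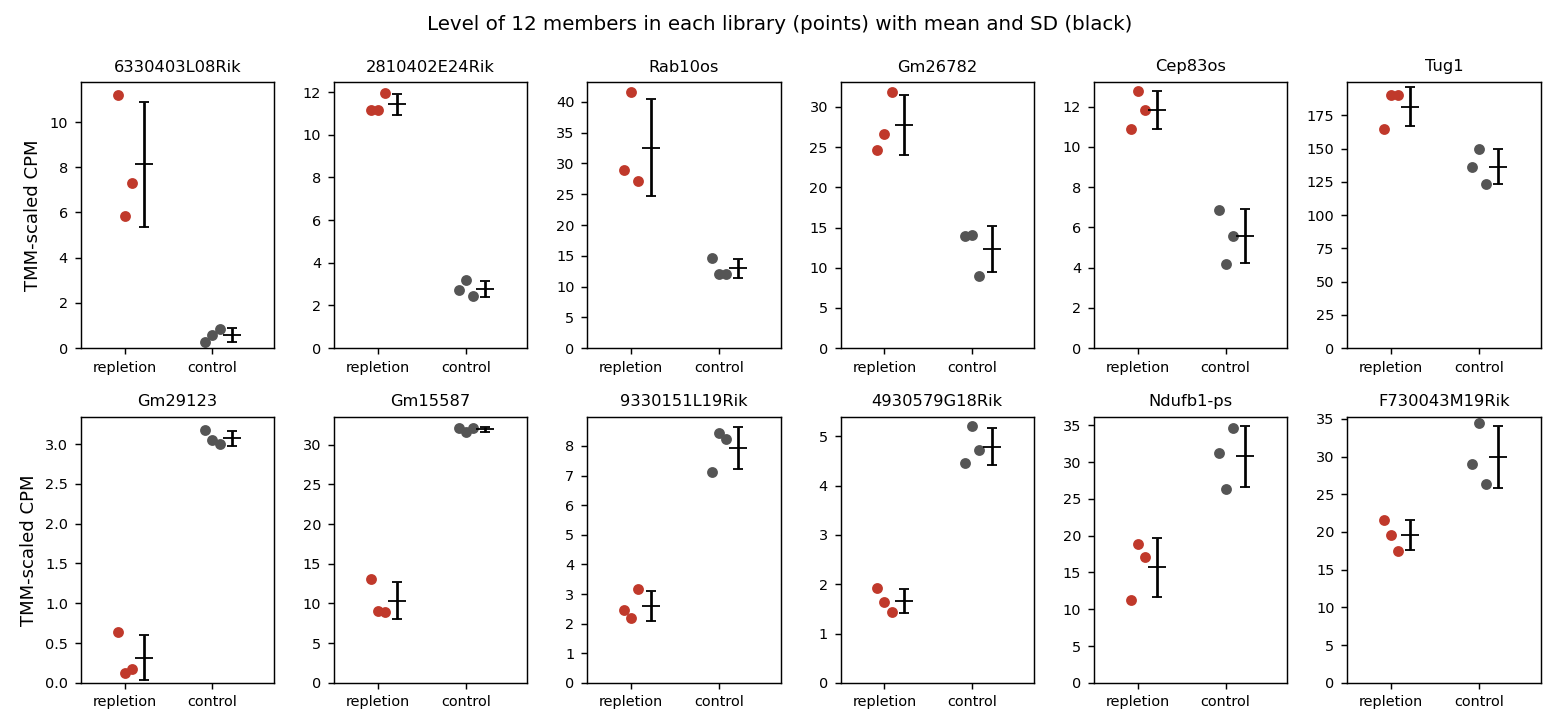
CPM, scaled by trimmed mean of M values (TMM), of 12 members in each library (points) with the mean and SD (black, n = 3), repletion on the left and control on the right of each panel; each vertical axis starts at 0. In the upper row every repletion library lies above every control library, and in the lower row below.

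The largest rise was that of 6330403L08Rik, an unspliced RNA at chr5:138995056-139000577 that overlaps the start of Pdgfa, the gene of a platelet-derived growth factor chain. It had 192, 93 and 122 counts in repletion libraries, against 4, 9 and 15 in control libraries, and the lowest repletion library was far above the highest control library. It stood at 8.12 ± 2.77 CPM in repletion cells and 0.564 ± 0.305 CPM in control cells (SD, n = 3 each), a 14.1-fold rise (log2 fold change 3.82, SE 0.40, adjusted p = 2.43e-06 with edgeR). Pdgfa rose 1.82-fold (log2 fold change 0.87, adjusted p = 9.76e-06).

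2810402E24Rik, which starts 54 bases from the start of Usp54, a ubiquitin-specific protease family gene, had 191, 177 and 200 counts in repletion libraries, against 43, 50 and 42 in control libraries. It was the most even of the large rises, with a 4.11-fold change (log2 fold change 2.04, SE 0.23, adjusted p = 4.26e-06 with edgeR), beside a rise of 0.48 in Usp54 (adjusted p = 0.0135). The Usp54 call was lost without repletion replicate 3 (0.40, adjusted p = 0.0817) or control replicate 1 (0.36, 0.0792) and with the length trend removed (0.30, 0.0936). Gm10101 starts 98 bases from Cgrrf1, a RING finger gene, and rose by 2.67 on the log2 scale, at 2.50 ± 0.364 CPM in repletion cells and 0.383 ± 0.231 CPM in control cells (SD, n = 3 each), while Cgrrf1 was at 36.2 ± 5.15 CPM in repletion cells and 37.2 ± 1.63 CPM in control cells (SD, n = 3 each). E130317F20Rik, at the start of the splicing repressor gene Ptbp1, rose by 2.17, and Ptbp1 was not called (-0.19, adjusted p = 0.237). Gm15853, at the start of the transcription adaptor gene Tada1, rose by 2.59, and Gm20655, at the start of Txlnb, by 2.38. Tada1 rose by 0.54 (adjusted p = 0.0121), a call lost without repletion replicate 3 (0.49, 0.0552) or control replicate 1 (0.45, 0.0563), and Txlnb was not called (0.42, adjusted p = 0.0969). Gm13963, contained in the formin gene Fmn1, rose by 2.21 beside a rise of 1.07 in Fmn1.

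Several members belong to homeobox gene clusters. Haglr, a bidirectional RNA of the HoxD cluster, had 54, 54 and 48 counts in repletion libraries, against 20, 7 and 9 in control libraries, and rose by 2.07 on the log2 scale (SE 0.47, adjusted p = 0.00236 with edgeR), or by 2.67 without control replicate 1. Haglr and its partner Hoxd3 overlap at their 3′ ends, not at their starts. Hoxd3, on the other strand, had 30, 24 and 35 counts in repletion libraries, against 0, 13 and 6 in control libraries (log2 fold change 2.17, adjusted p = 0.0213). Its call was lost without repletion replicate 3 (2.04, adjusted p = 0.0894) or control replicate 1 (1.59, 0.0627) or 3 (2.08, 0.0799), and without control replicate 2 its change was 3.25. Hoxd3os1, in the same cluster and named after its values were seen, had 97, 64 and 94 counts in repletion libraries, against 39, 33 and 34 in control libraries (log2 fold change 1.23, adjusted p = 0.00448), while its partner Hoxd4 had 0 counts in all 6 libraries. Dlx1as, antisense to the homeobox gene Dlx1, rose by 2.60 (adjusted p = 0.000801; 3.34 without control replicate 2), and Dlx1 was too low to be tested. Hotairm1, the myeloid RNA of the HoxA cluster, had 26, 80 and 51 counts in repletion libraries, against 40, 31 and 25 in control libraries. These overlapped and gave no call (0.69, adjusted p = 0.221 with edgeR).

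The steepest fall was that of Gm29123, contained in an intron of Poc1a, a centriole gene, with 11, 2 and 3 counts in repletion libraries, against 50, 48 and 52 in control libraries. It fell 9.43-fold (log2 fold change -3.24, SE 0.57, adjusted p = 0.000291 with edgeR), and without repletion replicate 1 its change was -4.26. Poc1a was not called (-0.26, adjusted p = 0.233). Gm15587 at chr5:24366192-24383614 lies within Nos3, the endothelial nitric oxide synthase gene, on the other strand. It had 224, 144 and 149 counts in repletion libraries, against 505, 498 and 557 in control libraries, and fell 3.08-fold (log2 fold change -1.62, SE 0.17, adjusted p = 1.79e-06). Nos3 was at 642 ± 82.7 CPM in repletion cells and 635 ± 60.7 CPM in control cells (SD, n = 3 each), a log2 fold change of 0.01 (adjusted p = 0.935). The counts assigned to Gm15587 thus fell while the levels of Nos3 overlapped between the groups. Of the exon bases of Gm15587, 27.7% are shared with exons of another gene and 72.3% lie in a coding gene's introns. Whether the counting used strand is unknown, so reads of Gm15587 and of Nos3 cannot be told apart here.

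9330151L19Rik, at the start of Dnaaf2, a dynein arm assembly factor gene, had 42, 35 and 53 counts in repletion libraries, against 112, 133 and 143 in control libraries (log2 fold change -1.60, SE 0.26, adjusted p = 0.000152 with edgeR). Dnaaf2 was not called (0.51, adjusted p = 0.119), but passed without repletion replicate 1 (0.70, 0.0323). Ndufb1-ps had 192, 299 and 285 counts in repletion libraries, against 492, 416 and 601 in control libraries, and fell 1.96-fold (log2 fold change -0.97, SE 0.18, adjusted p = 0.000459). Its partner Cpsf2, a subunit of the cleavage and polyadenylation factor, was at 109 ± 8.33 CPM in repletion cells and 107 ± 2.43 CPM in control cells (SD, n = 3 each).

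Further falls were Gm37637 inside Mrps22, a mitochondrial ribosome gene (-1.51, adjusted p = 0.00404), Erich2os (-1.60, adjusted p = 0.0302) and Gm37422 at the 3′ end of the methyltransferase gene Smyd2 (-0.76, adjusted p = 0.013). Mrps22 fell by 0.33 (adjusted p = 0.0452), a call that was lost without any 1 of the 6 libraries (-0.32 to -0.39, adjusted p from 0.0501 to 0.124). It was also lost with 3 other scalings, both other filters, the replicate block, the length trend removed and DESeq2 (adjusted p from 0.0502 to 0.103). Erich2os lost its call without any 1 of 5 libraries, all but repletion replicate 1 (-1.18 to -1.74, adjusted p from 0.0566 to 0.0893), and with the length trend removed (-1.36, 0.0622). Gm37422 lost its call without control replicate 2 (-0.62, adjusted p = 0.076).

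The question of whether the change followed the layout of the pair was put to the positions on GRCm38. Members whose 5′ end overlapped the 5′ end of the partner (head-to-head, n = 58) had 19 rises (32.8%), 3 falls (5.17%) and a median log2 fold change of 0.51, against rises in 20.5% and falls in 19.2% of all tested features. Members contained within the span of the partner (n = 44) had 6 rises and 6 falls (13.6% each) and a median of 0.10. Divergent members that did not overlap but started within 1 kb of the partner (n = 19) had 3 rises and 3 falls (15.8% each) and a median of 0.45. Those overlapping tail-to-tail (n = 19) had 4 rises (21.1%), 1 fall (5.26%) and a median of 0.25. Of 6 members that spanned their partner 2 rose and none fell in edgeR's test, of 3 convergent ones 1 rose, and the 1 divergent member further away was not called. Without repletion replicate 1 the head-to-head falls were 5, and without control replicate 3 the contained rises were 3.

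Across classes, 48 members were head-to-head or divergent and had a start within 1 kb of the partner's start. Of these, 13 rose (27.1%) and 4 fell (8.33%), and the median was 0.53, whereas the median of their partners was 0.07. The members were also split by introns, to be read against the same shares of all features. Of the 70 members with at least 50% of their exon bases in introns of a coding gene, 10 rose (14.3%) and 8 fell (11.4%), with a median of 0.11. Of the other 80, 25 rose (31.2%) and 5 fell (6.25%), with a median of 0.55. Without repletion replicate 3 or control replicate 3 only 6 of the intronic members rose, and without control replicate 2 only 5 fell. Among the other members the falls were 3 without repletion replicate 3, 3 without control replicate 2 and 2 without control replicate 3. Whether the counting used strand is unknown, and reads of a member and of the introns or exons of its partner cannot be told apart. The difference between classes was not tested.

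**Figure D3:**
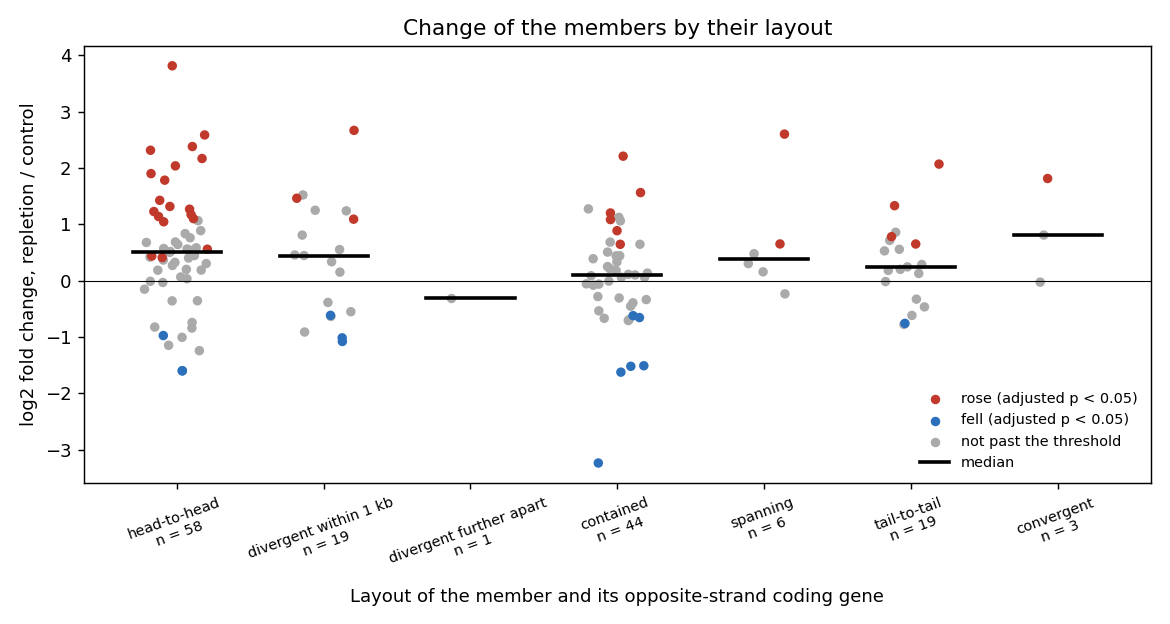
The log2 fold change of each member, repletion over control, by the layout of the member and its opposite-strand coding gene; red points rose, blue points fell, grey points did not pass the test and bars are medians. The head-to-head group has its median at 0.51 and 19 rises, and the contained group has its median at 0.10 with 6 rises and 6 falls.

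Of the 150 partners, 137 passed the filter, and of these 40 rose (29.2%), 27 fell (19.7%) and 70 were not called. Of all tested protein-coding genes, 21.2% rose and 20.8% fell. Most members with a tested partner stood below it in level. Per kilobase of gene length the member was lower in 113 of 137 pairs in repletion cells and in 110 in control cells. The median partner-to-member ratio was 5.47 in repletion cells and 5.48 in control cells. These values leave out the 13 pairs whose partner was too low to be tested. Some of those go the other way: Kank4os was at 4.84 CPM per kilobase in repletion cells, against 0.00438 for Kank4. Among the 35 members that rose, the partner rose for 11, fell for 7 and was not called for 14, and 3 partners were untested. Among the 13 that fell, the partner rose for 4, fell for 2 and was not called for 7. Across the 137 pairs the correlation between the log2 fold changes of member and partner was 0.151 (Pearson) and 0.156 (Spearman), a description across genes, which share the same 6 libraries and are not independent replicates.

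Whether the ratio of member to partner differed between the groups was tested on the difference of their log2(CPM + 0.5) values. A ratio can differ through the member, the partner or both. The test was limma's moderated test on 9689 pairs of all features with an opposite-strand coding gene, with Benjamini-Hochberg adjustment over them. The pseudocount of 0.5 CPM understates the change of low RNAs. The ratio of member to partner rose in 31 of 137 pairs (22.6%, against 18.2% of all pairs) and fell in 17 (12.4%, against 17.5%), and 89 did not pass. In the head-to-head class the ratio rose in 16 of 51 and fell in 6, and in the contained class it rose in 5 of 42 and fell in 7. For the 47 tested pairs that were head-to-head or divergent with starts within 1 kb, it rose in 15 and fell in 4.

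The pairs with the smallest p of a rising ratio were Gm26782 and Tep1, Cep83os and Cep83, 1700052K11Rik and Tlk2, 6330403L08Rik and Pdgfa, 2810402E24Rik and Usp54, and Gm2895 and Ndrg1. Their ratio rose by 1.86, 1.75, 2.13, 2.15, 1.39 and 1.66 on the log2 scale in that order. Gm2895 was itself not called (1.07, adjusted p = 0.0698 with edgeR, and 0.0471 with a minimum of 1 CPM in 3 samples), while Ndrg1, a stress-responsive gene, fell by 0.86 (adjusted p = 1.49e-05). The pairs with the smallest p of a falling ratio were Gm15587 and Nos3, F730043M19Rik and Atxn7l1, 4930579G18Rik and Acin1, 9330151L19Rik and Dnaaf2, Ptprtos and Ptprt, and Gm29123 and Poc1a. Their ratio changed by -1.61, -1.30, -1.64, -1.89, -1.74 and -1.94 in that order.

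**Figure D4:**
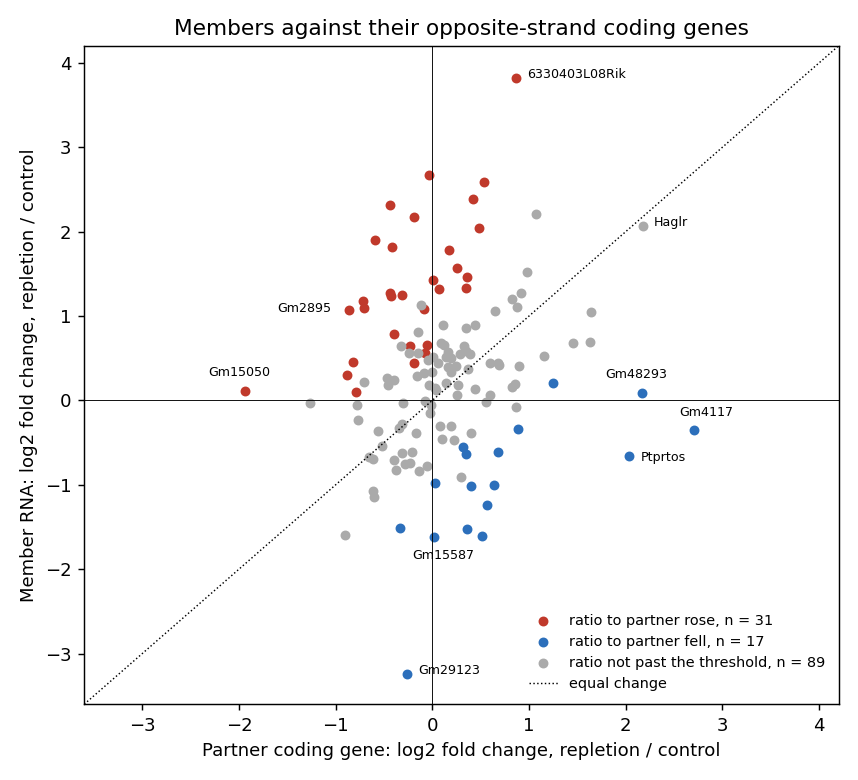
The log2 fold change of the member (vertical) against that of its opposite-strand coding gene (horizontal) for 137 pairs, repletion over control; red pairs had a rising and blue pairs a falling ratio of member to partner, and the dotted line marks equal change. Points above the line number 31 in red, points below it 17 in blue, and pairs such as Haglr and Hoxd3 lie close to it.

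In 11 pairs the member and the partner were both called and moved in opposite directions. The share of such pairs over all pairs of features was not counted, so the number is a description. Of all tested features 20.5% rose and 19.2% fell. Cep83os had 187, 203 and 198 counts in repletion libraries, against 108, 66 and 97 in control libraries, and rose 2.13-fold (log2 fold change 1.09, SE 0.22, adjusted p = 0.000894 with edgeR). Cep83, which encodes a centriole appendage protein and starts 78 bases away by the deposited starts, had 1118, 1012 and 973 counts in repletion libraries, against 1691, 1565 and 1697 in control libraries. It fell by 0.70 on the log2 scale (adjusted p = 7.97e-05), and in neither gene did the groups overlap. The shared promoter is the first of the sequences printed above.

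Gm26782 had 422, 424 and 533 counts in repletion libraries, against 219, 221 and 156 in control libraries (log2 fold change 1.17, SE 0.18, adjusted p = 9.76e-05 with edgeR). Its partner Tep1, which encodes a telomerase-associated protein, had 722, 770 and 724 counts in repletion libraries, against 950, 1323 and 1306 in control libraries (-0.71, adjusted p = 0.000396). Both genes separated the groups, and 3.52% of the exon bases of Gm26782 are shared with another gene. F730043M19Rik showed the reverse, with 369, 311 and 293 counts in repletion libraries, against 457, 542 and 458 in control libraries (log2 fold change -0.61, SE 0.15, adjusted p = 0.00356). Its partner Atxn7l1 had 865, 713 and 906 counts in repletion libraries, against 377, 605 and 534 in control libraries (0.68, adjusted p = 0.00211).

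1700052K11Rik had 62, 34 and 79 counts in repletion libraries, against 10, 12 and 12 in control libraries (log2 fold change 2.32, SE 0.45, adjusted p = 0.000653 with edgeR), beside a fall of Tlk2, a tousled-like kinase gene, by 0.44 (adjusted p = 0.00499). 4930579G18Rik, contained in Acin1, had 33, 26 and 24 counts in repletion libraries, against 70, 82 and 82 in control libraries (log2 fold change -1.52, SE 0.32, adjusted p = 0.00141). Acin1, a gene of apoptotic chromatin condensation and splicing, rose by 0.35 (adjusted p = 0.0314), a call lost without repletion replicate 1 (0.26, 0.107) or 3 (0.31, 0.131) or control replicate 1 (0.26, 0.15) or 2 (0.35, 0.0869). It was also lost with the length trend removed (0.12, 0.449) and under the replicate block (0.35, 0.0573).

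Junos, named after its values were seen, starts beside Jun, the AP-1 transcription factor gene. It had 94, 79 and 81 counts in repletion libraries, against 20, 34 and 50 in control libraries (log2 fold change 1.27, adjusted p = 0.00606 with edgeR). Jun had 6108, 3532 and 3533 counts in repletion libraries, against 5787, 5853 and 5799 in control libraries, so that repletion replicate 1 stood with the control libraries. Its fall of 0.44 (adjusted p = 0.0281) was lost without repletion replicate 2 (-0.34, 0.0974) or 3 (-0.31, 0.168) or control replicate 1 (-0.44, 0.0603) or 2 (-0.43, 0.0708), with library size as the only scaling (-0.38, 0.0655) and with the length trend removed (-0.38, 0.0592).

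In the other opposite pairs, the call of at least 1 of the 2 genes was lost when a library was left out. Gm5106 rose by 1.90 (adjusted p = 0.023 with edgeR) beside a fall of 0.59 in Abcb1b, a P-glycoprotein efflux pump gene. Its call was lost without repletion replicate 2 (1.24, 0.177) or control replicate 1 (1.41, 0.0758). Fbxl12os rose by 1.82 (adjusted p = 0.0173), a call lost without repletion replicate 3 (1.73, 0.0683). Fbxl12, an F-box gene of ubiquitin ligases, fell by 0.42 (adjusted p = 0.0465), which was lost without repletion replicate 2 (-0.43, 0.0625) or 3 (-0.33, 0.176) and without control replicate 2 (-0.39, 0.126) or 3 (-0.39, 0.132). It was also lost with 3 other scalings, a minimum of 1 CPM, the replicate block and DESeq2 (adjusted p from 0.0504 to 0.0944). Gm13375 fell by 1.01 (adjusted p = 0.0148), lost without repletion replicate 3 (-0.94, 0.0592) or control replicate 3 (-0.74, 0.116). Its partner Arhgap21, a GTPase-activating protein gene, rose by 0.40 (adjusted p = 0.0123), lost without repletion replicate 3 (0.37, 0.0606) or control replicate 1 (0.26, 0.0865).

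Ptprtos fell by 0.65 (adjusted p = 0.015 with edgeR), lost without control replicate 2 (-0.60, 0.0608) and with the length trend removed (-0.42, 0.105). It lies in an intron of Ptprt, a receptor tyrosine phosphatase gene with 34, 14 and 12 counts in repletion libraries, against 0, 8 and 6 in control libraries (2.04, adjusted p = 0.0446). That call was lost without any 1 of the 6 libraries (1.46 to 2.68, adjusted p from 0.0532 to 0.232), under the replicate block (2.00, 0.0915), with the length trend removed (1.77, 0.0821) and with DESeq2 (2.07, 0.0848). Thumpd3, a tRNA methyltransferase gene paired with Gt(ROSA)26Sor, fell by 0.39 (adjusted p = 0.00992), lost without repletion replicate 3 (-0.36, 0.0523). With the partner taken by the nearest start, the ratio of Gt(ROSA)26Sor changed by 0.28 in place of 1.14 and was not called. The number of opposite pairs was 5 without repletion replicate 3, 6 without control replicate 1 and 7 without control replicate 2.

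**Figure D5:**
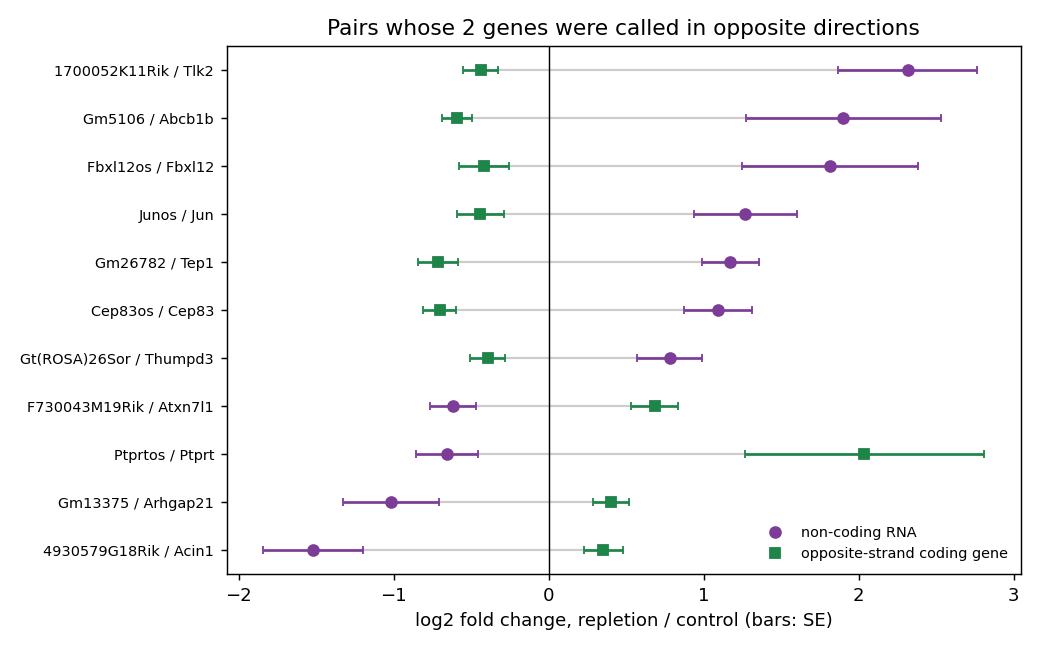
The log2 fold change, repletion over control, with its SE, of the non-coding RNA (purple circles) and of its opposite-strand coding gene (green squares) for the 11 pairs called in opposite directions. In 7 pairs the non-coding RNA lies above 0 and the coding gene below it, and in 4 pairs the reverse.

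In 13 pairs both genes were called in the same direction, 11 upward and 2 downward, among them 6330403L08Rik and Pdgfa, Haglr and Hoxd3, and Tug1 and Morc2a. As with the opposite pairs, their share over all pairs of features was not counted. Map2k3os, named after its values were seen, had 108, 79 and 99 counts in repletion libraries, against 35, 34 and 32 in control libraries (log2 fold change 1.46, adjusted p = 0.000854 with edgeR). Map2k3, a kinase gene upstream of p38, rose by 0.36 (adjusted p = 0.0137), lost without repletion replicate 3 (0.35, 0.054) or control replicate 2 (0.27, 0.106). Their ratio rose by 0.91 (adjusted p = 0.0226 with limma), lost without repletion replicate 1 (0.84, 0.0641) or 3 (0.89, 0.0722) or control replicate 3 (0.78, 0.0858). Gm16576 had 87, 43 and 71 counts in repletion libraries, against 68, 178 and 171 in control libraries, with control replicate 1 inside the repletion range. It fell by 1.08 (adjusted p = 0.0138), lost without control replicate 2 (-0.84, 0.0855) or 3 (-0.97, 0.0562), beside a fall of 0.61 in Sun2, an inner nuclear membrane gene (adjusted p = 0.000372). The number of such pairs was 6 without repletion replicate 3, 8 without control replicate 1, 7 without control replicate 2 and 7 without control replicate 3.

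In some pairs only the coding gene was called, and these were named after their values were seen. Vcan, the gene of the matrix proteoglycan versican, had 21, 11 and 24 counts in repletion libraries, against 7, 1 and 0 in control libraries (log2 fold change 2.70, adjusted p = 0.0162 with edgeR). Gm4117, at its start, had 36, 67 and 46 counts in repletion libraries, against 74, 68 and 45 in control libraries, which overlapped (-0.36, adjusted p = 0.448). With the length trend removed Gm4117 was called (-1.08, adjusted p = 0.0277). The Vcan call was lost without repletion replicate 3 (2.47, 0.0827) or control replicate 2 (2.31, 0.0871) or 3 (2.10, 0.0846), and without control replicate 1 its change was 4.88. Clmp, an adhesion molecule gene, rose by 2.16 while Gm48293 inside it was at 1.60 ± 0.429 CPM in repletion cells and 1.51 ± 0.787 CPM in control cells (SD, n = 3 each). Hoxa3 fell by 1.94 while Gm15050 inside it was at 2.62 ± 0.922 CPM in repletion cells and 2.41 ± 0.216 CPM in control cells (SD, n = 3 each).

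Genes whose products end or degrade promoter upstream and antisense RNAs were read from a list of 33 names, drawn up with earlier results of these data known, among them exosome subunits and adaptors, Integrator subunits and the Restrictor complex. Of the 32 tested, 8 rose (25.0%) and 4 fell (12.5%), against 20.5% and 19.2% of all tested features, 20 were not called, and the median log2 fold change was 0.13. Ppp1r10, which encodes a phosphatase 1 targeting subunit that acts in transcription termination, rose by 4.48 on the log2 scale, to 56.0 ± 8.99 CPM in repletion cells, against 2.53 ± 0.883 CPM in control cells (SD, n = 3 each; adjusted p = 1.08e-09 with edgeR). Zc3h4, a Restrictor subunit, rose by 3.21, to 54.4 ± 6.03 CPM in repletion cells, against 5.88 ± 0.767 CPM in control cells. Ints6 rose by 1.76 and Pcf11, a termination factor, by 1.16. Ints11, the Integrator endonuclease, fell by 0.59 (adjusted p = 0.00424). These 5 genes were called under every setting. Of the 9 tested exosome subunit genes 1 rose, 3 fell and 5 were not called. Exosc1 rose by 0.55 (adjusted p = 0.00602), while Exosc5, Exosc7 and Exosc8 fell by 0.52, 0.39 and 0.34 (adjusted p = 0.0148, 0.0345 and 0.0185). The Exosc7 call was lost without repletion replicate 1 or 3 or control replicate 2 or 3 (adjusted p from 0.0653 to 0.126), with library size only (0.0737), under the replicate block (0.0681) and with DESeq2 (0.0544). The Exosc8 call was lost without repletion replicate 3 (0.0541) or control replicate 3 (0.0582). Apart from Ppp1r10 and Ints11, the genes of the list were named after their values were seen. Their part in the change of the non-coding RNAs was not tested.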

How the data were processed

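Whole-number counts per feature and sample were deposited by the authors for 55232 features, and these counts were the only values tested. The deposited FPKM, per the file headers, are length-scaled values, used here for 1 alternative ranking of the members only. The deposited group means, a normalized signal per the file headers, were not used. The deposited log2 fold change was used only to check the sign of the fit, and the deposited p-values were not used. HISAT2 2.0.5, featureCounts 1.5.0-p3, DESeq2 1.20.0 and GRCm38.p6 are listed per the submitters' processing notes, which give no role or order; whether counting used strand is not given there or elsewhere in the sources at hand.

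The members and gene lists were chosen with earlier results of these data known. In R 4.3.3, features were filtered with filterByExpr in edgeR 4.0.16 (13804 kept, 41428 removed), TMM-scaled (factors 0.970 to 1.03) and tested with glmQLFTest, both groups in 1 fit without covariates. The coefficient of biological variation was 14.1%. Ratios to partners were tested with limma 3.58.1. DESeq2 1.42.0 and limma-voom were alternatives, beside other scalings and filters, a replicate block, removal of a trend with gene length and leaving out each library. Positions are those of the deposited table, and exons came from the GENCODE annotation on the same build, in which 149 of 150 members had the same coordinates. Copies were sought with blastn 2.17.0, and 3 members (Gm47547, Gm36551 and Gm20632, none of them called) had near-identical ones. Both tests were also run on simulated data. The edgeR simulation gave all features a common dispersion. The ratio simulation gave all genes the same noise whatever their count and was fitted without the trend. It therefore does not show how the ratio test performs on rare RNAs. Members were named by rule: the 12 largest rises and 12 largest falls among those called with groups that did not overlap, the 12 most abundant, well-studied RNAs, the 6 smallest p of the ratio in each direction, and the partners of all these. Exceptions are marked in the text, and 1 partner gene is not reported here.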

Additional observations from a re-analysis of the deposited data

How the results depend on the processing

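The number of members that rose was 35 and stayed between 31 and 39 under the other scalings, filters, models and the replicate block; leaving out a library gave 27 to 32. The number that fell was 13 in each of those settings and 8 to 16 without 1 library, the lowest without control replicate 2. With the 150 members taken by summed FPKM, 28 rose and 14 fell (median 0.25); among the first 100 by count 26 rose and 11 fell (0.26), and among the first 200, 47 rose and 15 fell (0.34). With the replicate block 31 rose and 13 fell, and all 44 of these were among the 48 called. No pairing by replicate number was seen: same-numbered libraries deviated from their group means with correlations of -0.175, -0.128 and 0.0456. Of the 6 libraries, 1 correlated best with its own number. With 3 libraries a group these values cannot exclude a pairing, and the labels do not state one. The ratio to the partner rose in 31 pairs and fell in 17. Without the overlapping pairs, which left 22, it rose in 7 and fell in 4, since fewer pairs were tested; without 1 library it rose in 20 (without control replicate 3) to 29 and fell in 12 to 17. Under the settings that kept the members, their median stayed between 0.30 and 0.42.

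Reversals were found only among values that were not called or, for 2 ratios, where the alternative named another partner. Cgrrf1 changed by 0.0216 with library size only and by -0.158 to 0.0487 without 1 library. Cpsf2 changed by -0.0132 with no filter, -0.0264 with the length trend removed and -0.0459 to 0.0522 without 1 library. Ints2 changed by 0.0111 with library size only and -0.1591 to 0.0261 without 1 library, and Nos3 by -0.0241 with no filter and -0.0947 to 0.0871. Without 1 library, Gm15050 changed by -0.1053 to 0.3719 and Gm48293 by -0.1455 to 0.5786. With the partner taken by the nearest start, the ratio of Gm15050 changed by -0.0863 and that of Gm48293 by 0.5635. With a pseudocount of 2 the ratio changed by -0.137 for Gm13963, -0.0576 for Gm45515 and -0.1853 for Gm44686, and with 0.1 by -0.3721 for Haglr. Without 1 library the ratio ran from -0.5472 to 0.0806 for Kcnq1ot1, from -0.0272 to 0.2188 for Gm16185, from -0.0108 to 0.4693 for Gm45515, from -0.1391 to 0.3258 for Gm44686 and from -0.3697 to 0.7875 for Haglr. The cause of these reversals was not tested. Over the named genes and all settings, 1591 fold changes kept direction and side of the threshold, 126 lost the call, 16 gained it and 16 reversed. For the ratios these counts were 418, 31, 4 and 12. Depth limits the members: at a median of 250 counts over 6 libraries, a change that was not called may have been too small to detect.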

Other observations

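Further members, named after their values were seen, lie against coding genes of signalling, splicing and replication. Gm19610, at the start of the epidermal growth factor receptor ligand gene Ereg, had 58, 48 and 37 counts in repletion libraries, against 23, 17 and 28 in control libraries, while Ereg had 1882, 2101 and 1958 counts in repletion libraries, against 765, 520 and 587 in control libraries. Both rose in edgeR's test, Gm19610 by 1.05 on the log2 scale (adjusted p = 0.0466) and Ereg by 1.64 (adjusted p = 3.28e-07). The Gm19610 call was lost without any 1 of the 6 libraries (adjusted p from 0.0554 to 0.149), with no filter (1.01, 0.0843), with upper quartile scaling (1.03, 0.05), under the replicate block (1.04, 0.0797) and with DESeq2 (1.05, 0.0789). Gm44686 and the chromatin remodeller gene Chd2 rose by 1.10 (adjusted p = 0.025) and 0.87 (adjusted p = 3.86e-05). The Gm44686 call was lost without repletion replicate 2 (0.89, 0.099) or control replicate 2 (1.08, 0.0651) or 3 (0.86, 0.108). Gm45515, contained in Swap70, a gene of actin and Rac signalling, had 108, 84 and 65 counts in repletion libraries, against 46, 28 and 35 in control libraries. Gm45515 rose 2.30-fold (adjusted p = 0.0072) and Swap70 1.77-fold (adjusted p = 1.73e-05), and both were called under every setting.

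Other members changed beside a coding gene that was not called or fell. 1700109K24Rik, in the introns of the splicing factor gene Rbfox2, had 82, 71 and 61 counts in repletion libraries, against 14, 28 and 29 in control libraries, with no overlap. It rose by 1.57 on the log2 scale (adjusted p = 0.00281 with edgeR), while Rbfox2 changed by 0.25 (adjusted p = 0.0558, and 0.0482 with DESeq2). C230037L18Rik, at the start of the lysosomal sulfatase gene Arsa, had 55, 29 and 37 counts in repletion libraries, against 14, 8 and 12 in control libraries. It rose by 1.79 (adjusted p = 0.00826; 1.52 and 0.0538 without repletion replicate 1), and Arsa was not called (0.17, adjusted p = 0.217). AV099323 starts 43 bases from Pcna, the replication clamp gene, and had 33, 19 and 45 counts in repletion libraries, against 11, 13 and 16 in control libraries. It did not pass the test (1.24, adjusted p = 0.0584; 1.48 and 0.0351 without repletion replicate 2). Pcna fell by 0.43 (adjusted p = 0.00286), and the ratio of AV099323 to Pcna rose by 1.27 (adjusted p = 0.0157 with limma; 1.08 and 0.071 without repletion replicate 3).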
